A study of Mus musculus with 12 samples.

Results

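The interleukin-1 family genes described here are 9: the cytokines Il1a, Il1b, Il1f9 (also called Il36g), Il33 and Il18, the receptor antagonist Il1rn, and the receptors Il1r1, Il1r2 and Il1rl1. They were listed by symbol, without use of any measured value, and matched to the array through the RefSeq accession of each probe. All 9 were found among 18539 named genes, on 15 probes, and each passed the filter on dim probes. Messenger RNA of distal colorectal tissue, labelled as epithelium and taken on day 100 from female BALB/c mice, was measured on 12 one-colour Agilent oligonucleotide arrays, 3 for each of 4 groups. All mice entered the experiment at 5 to 7 weeks of age.

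The control group received neither agent, as far as the labels state. The AOM group received azoxymethane, a colon carcinogen, at 10 mg/kg by weekly injection, 6 times from day 1. The DSS group drank dextran sulphate sodium, which injures the colonic epithelium, for 5 days in each 21-day cycle, 3 cycles from day 5. The AOM/DSS group received 1 azoxymethane injection of 12.5 mg/kg on day 1 and the same DSS cycles, and bore tumours at collection. Control, AOM and DSS tissue was scraped into Trizol, but the AOM/DSS samples were neoplasms clipped out and stored in an RNA preservative, so that tumour, treatment and collection method cannot be told apart in comparisons with that group. The AOM dose and schedule also differed between the AOM and AOM/DSS groups.

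Interleukin-1α and interleukin-1β signal through the receptor Il1r1 to MyD88 and NF-κB, and induce chemokines that attract neutrophils. Il1rn encodes an antagonist that occupies Il1r1 without signalling, and Il1r2 encodes a decoy receptor that binds the cytokine without signalling. Interleukin-33, an alarmin of epithelial and stromal cells, acts through ST2, the product of Il1rl1, which is also made as a soluble form that captures the cytokine. Interleukin-18 is made by the colonic epithelium and matured by inflammasomes, and Il1f9 encodes interleukin-36γ, an epithelial cytokine with a receptor of its own.

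Promoter sequences are shown for Il1rl1, Il1b and Il1f9, whose fitted AOM/DSS differences from control were largest, and for genes whose window held a searched motif. The fitted value of Il1f9 is no measured size, as its probe was dim outside AOM/DSS. The RefSeq promoter windows (GRCm38.p6, 250 bases before to 50 after a start) covered all 9 genes with 14 starts. They were searched on both strands for the NF-κB consensus and for the AP-1 motif TGANTCA, which do not overlap in any of these windows. Each stretch is given 5′ to 3′ on the strand of the gene, over the 250 bases before the start, with motif matches in capitals. Il1b lies at chr2:129371140-129371389 (minus strand), Il1f9 at chr2:24186226-24186475 (plus strand), Il1a at chr2:129309973-129310222 (minus strand), Il1rn (the outermost of 3 starts) at chr2:24336610-24336859 (plus strand), Il1r1 (the second of 2 starts) at chr1:40266336-40266585 (plus strand), and the 2 starts of Il1rl1 at chr1:40429320-40429569 (plus strand) and chr1:40439379-40439628 (plus strand).
Il1b: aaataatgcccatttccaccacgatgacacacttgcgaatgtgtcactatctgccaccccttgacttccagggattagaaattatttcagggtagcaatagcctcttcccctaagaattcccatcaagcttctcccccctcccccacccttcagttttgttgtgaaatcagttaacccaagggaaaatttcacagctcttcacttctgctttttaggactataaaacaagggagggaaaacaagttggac
Il1f9: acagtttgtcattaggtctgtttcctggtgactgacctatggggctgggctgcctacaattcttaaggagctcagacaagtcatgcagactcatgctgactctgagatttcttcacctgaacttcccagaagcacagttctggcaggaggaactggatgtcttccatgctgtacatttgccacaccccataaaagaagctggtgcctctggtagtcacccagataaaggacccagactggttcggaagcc
Il1rl1, first start: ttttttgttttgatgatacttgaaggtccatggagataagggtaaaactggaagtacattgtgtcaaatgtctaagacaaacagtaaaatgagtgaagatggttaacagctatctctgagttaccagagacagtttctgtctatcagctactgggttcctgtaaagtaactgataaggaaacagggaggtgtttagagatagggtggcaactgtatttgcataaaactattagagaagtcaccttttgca
Il1rl1, second start: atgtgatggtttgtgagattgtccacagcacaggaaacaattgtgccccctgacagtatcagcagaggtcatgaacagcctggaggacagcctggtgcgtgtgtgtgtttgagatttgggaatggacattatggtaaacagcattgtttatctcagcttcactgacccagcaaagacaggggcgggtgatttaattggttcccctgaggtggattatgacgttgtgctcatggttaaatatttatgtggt
Il1a: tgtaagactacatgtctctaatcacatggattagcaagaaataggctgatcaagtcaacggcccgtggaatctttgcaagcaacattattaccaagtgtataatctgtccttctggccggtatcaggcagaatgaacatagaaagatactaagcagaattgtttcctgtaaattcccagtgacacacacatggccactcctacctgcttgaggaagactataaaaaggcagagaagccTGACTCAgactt
Il1rn, outermost start: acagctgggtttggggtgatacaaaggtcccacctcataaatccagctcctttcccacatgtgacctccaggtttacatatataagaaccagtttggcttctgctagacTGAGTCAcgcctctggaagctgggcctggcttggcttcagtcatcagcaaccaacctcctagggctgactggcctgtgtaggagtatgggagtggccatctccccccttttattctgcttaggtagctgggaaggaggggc
Il1r1, second start: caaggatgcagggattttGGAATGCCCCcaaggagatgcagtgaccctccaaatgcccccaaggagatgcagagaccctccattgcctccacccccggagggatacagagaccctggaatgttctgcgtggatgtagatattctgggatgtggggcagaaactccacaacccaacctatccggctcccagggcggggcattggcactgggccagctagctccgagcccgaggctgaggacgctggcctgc

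An AP-1 match stood 12 bases before the Il1a start and another 141 bases before the outermost Il1rn start. An NF-κB match stood 232 bases before the second Il1r1 start. These were the only matches, so 1 of the 14 windows held the NF-κB consensus and 2 of the 14 the AP-1 motif. They belong to 1 and 2 of the 9 genes. Over all 32851 RefSeq windows of the same length, 4.50% held the NF-κB consensus and 7.81% the AP-1 motif. The Il1b, Il1f9 and Il1rl1 windows held neither, which says only that these letters are not in these windows.

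Values are given as log2 scaled signal, the log2 processed intensity of a probe minus the 75th percentile of its array, so that 0 marks the brightness below which 75% of the probes on an array lie. A gene with several probes is represented by its brightest one, and levels of different probes are not compared. A difference was called where the Benjamini-Hochberg adjusted p of limma, over 19094 genes, was under 0.05. The labels do not say that the 3 arrays of a group come from separate mice, and the p-values cover no more than the spread among these arrays, part or all of which could be technical. In bulk tissue, fewer cells of a type and less RNA per cell cannot be told apart.

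The AOM/DSS arrays were brighter: their processed intensity had a 75th percentile between 1115 and 1185, compared with 393 to 694 for the other 9. In AOM/DSS 62.6% to 66.2% of probes were well above background, and elsewhere 52.0% to 59.3%. The arrays lay on 3 slides of 4: one with AOM 1 and 2 and AOM/DSS 1 and 2, one with AOM 3 and the DSS arrays, and one with AOM/DSS 3 and the controls. No AOM or DSS array shared a slide with a control, so their differences from control are also differences between slides. The controls did not form a uniform group. Controls 1 and 2 had low summed signals of 9 fibroblast markers (4.74 and 3.82, against 6.85 to 7.72 on the other 10 arrays), and control 3 and DSS 1 had high signals of 8 pancreatic acinar markers (9.57 and 6.80, against 4.90 and below on the others). Each of 8 general epithelial markers was well above background in every group, but their sum was 9.36 to 9.63 in AOM/DSS and 10.3 to 11.3 elsewhere. Absorptive colonocyte markers summed to between 5.36 and 6.02 in AOM/DSS and to 8.56 or more elsewhere, and goblet cell markers to between 7.12 and 8.83 against 10.6 to 11.9. Called lower in AOM/DSS than in control were 6 of the 8 general, 6 of 7 absorptive and 7 of 7 goblet cell markers. Of all genes 34.6% were called there in either direction. The part of this shift in the results was not tested.

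**Figure D1:**
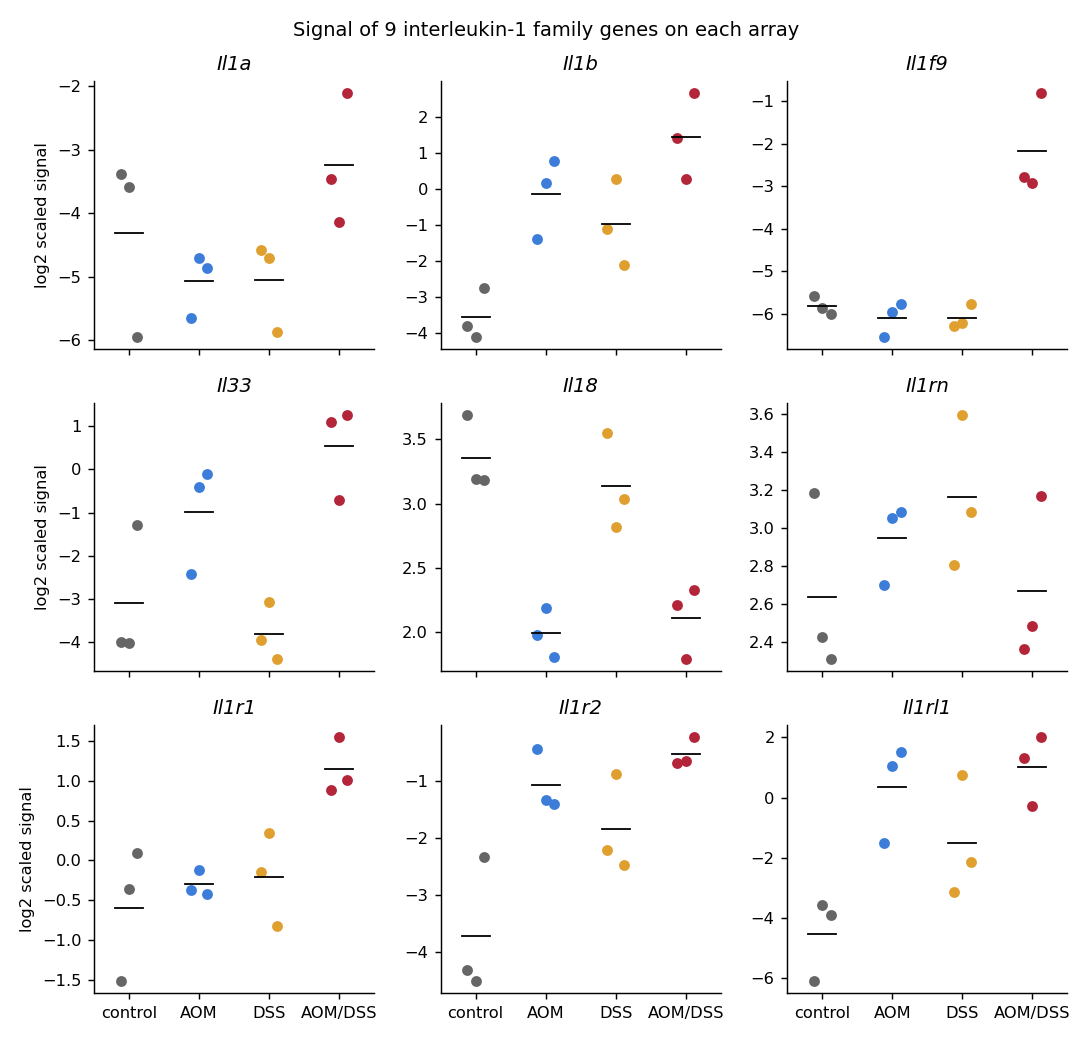
Log2 scaled signal (y axis, own scale per panel) of the probe that represents each of the 9 genes, for each array (points) and group (x axis), with the group mean as a bar. The 3 AOM/DSS arrays lie above all controls for Il1b, Il1f9, Il33, Il1r1, Il1r2 and Il1rl1, and below all controls for Il18.

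The main question of the design is what distinguishes AOM/DSS neoplasms from control epithelium. There 7 of the 9 genes were called: Il1b, Il1f9, Il33, Il1r1, Il1r2 and Il1rl1 were higher and Il18 was lower, while Il1a and Il1rn did not pass. Of all genes tested, 34.6% were called, and 17.2% were called as higher. The median log2 difference was 3.20 over the 9 genes and 0.03 over all genes. The number called depended on the fit: 4 with slide as a block (background 11.6%) and 2 (Il1b and Il1r1) after normexp background correction. Without controls 1 and 2, a setting chosen after seeing the data, 1 (Il1f9) was called. Il1f9 passed the filter only through AOM/DSS, so it had to differ and its calls are not support.

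Markers of some other cell types were also higher than in control, and those of others were not. The log2 summed signal of 9 neutrophil markers was 1.50 to 2.93 in controls, 3.81 to 4.55 in AOM, 2.85 to 4.78 in DSS and 6.09 to 7.71 in AOM/DSS. Against control 8 of the 9 were called higher in AOM/DSS and in AOM, beside 17.2% and 14.8% of all genes. Csf3r, Cxcr2 and Trem1 were not well above background on any control array. The sum of 10 macrophage and monocyte markers was 3.45 to 4.63 in controls and 5.21 to 6.14 on the treated arrays. Mast cell markers, of a cell type that carries ST2, summed to 5.20 to 5.82 in AOM, 2.84 to 3.89 in controls, 2.45 to 3.33 in DSS and 3.49 to 4.87 in AOM/DSS. Fibroblast markers were low on controls 1 and 2, and Il33, Il1r2, Il1b and Il1r1 were lower there than on control 3. Il1a, Il1rn, Il18 and Il1f9 were higher there than on control 3. Il1rl1 was lower on control 1 and higher on control 2 than on control 3. In AOM/DSS against control, 2 of 8 endothelial markers were called higher. Of 8 B and plasma cell markers 3 were called lower and 0 higher. Of 6 T cell, 6 innate lymphoid and 7 smooth muscle markers 0 were called. Of all genes 34.6% were called there. The part of any of these cells in the results was not tested.

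**Figure D2:**
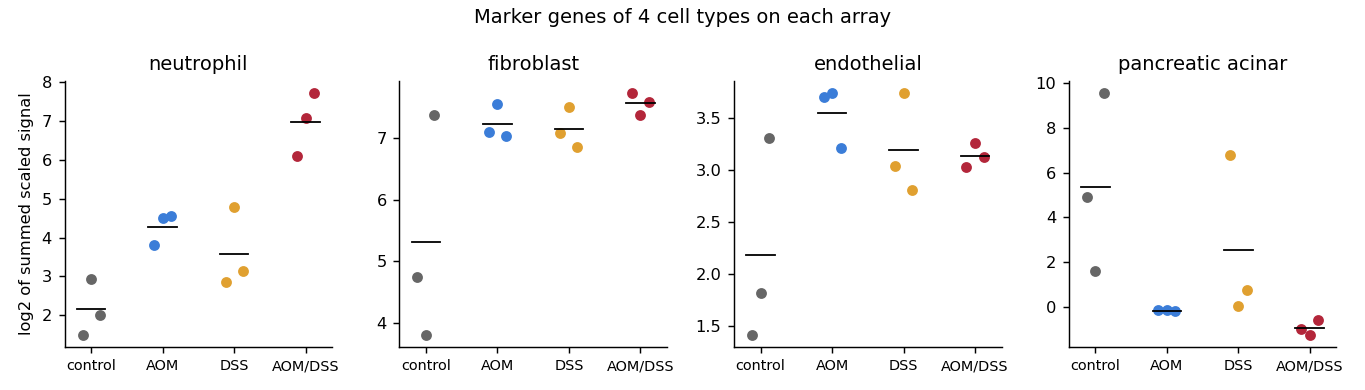
Log2 of the summed scaled signal (y axis) of marker genes of neutrophils, fibroblasts, endothelium and pancreatic acini on each array (points) by group (x axis), bars for group means. Neutrophil sums were 6.09 or more on every AOM/DSS array, fibroblast sums were lowest on controls 1 and 2, and acinar sums were highest on control 3 and DSS 1.

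Il1b, the cytokine whose product drives neutrophil recruitment, stood at -3.80, -4.11 and -2.77 in controls, -1.40, 0.17 and 0.77 in AOM, -1.13, 0.27 and -2.13 in DSS, and 1.39, 0.28 and 2.65 in AOM/DSS. Every treated array lay above every control, and AOM/DSS 2 lay within the AOM range. Controls 1 and 2 were not well above background. Il1b rose by 5.00 ± 0.77 (SE, n = 3 per group) on the log2 scale in AOM/DSS against control (adjusted p = 0.00097). It was 3.41 ± 0.77 higher in AOM (adjusted p = 0.013). In DSS the difference was 2.57 ± 0.77 and did not pass (adjusted p = 0.15), although the groups did not overlap.

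After normexp the AOM/DSS difference from control was 2.73 and still called (adjusted p = 0.023). Il1b was also 2.44 ± 0.77 higher in AOM/DSS than in DSS (adjusted p = 0.033), whereas the difference from AOM, 1.59 ± 0.77, did not pass (adjusted p = 0.12). The call against DSS was made in 2 of the 6 fits that left out 1 array. Without controls 1 and 2 the AOM/DSS difference from control was 4.21, with an adjusted p of 0.055. The Il1b probe is printed 10 times on each array, and the coefficient of variation of those spots was 3.23% to 29.0%, the highest on the dim control arrays.

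Il1f9 was well above background in the neoplasms alone, and it passed the filter only through those arrays, so it had to differ and its p-values are not support. Its values were -5.58, -5.87 and -6.00 in controls, -6.54, -5.95 and -5.78 in AOM, -6.28, -6.22 and -5.76 in DSS, and -2.79, -2.93 and -0.81 in AOM/DSS. All 9 arrays outside AOM/DSS were not well above background, and all 3 AOM/DSS arrays were above them. Set against the dimmest signal that passed as well above background, Il1f9 in AOM/DSS was at least 3.37-fold higher than in control, at least 4.88-fold higher than in AOM and at least 3.76-fold higher than in DSS. Such a bound uses the means of the normalized log2 values, taking for each dim array the higher of that lowest passing signal and the probe's own. The bounds rested largely on AOM/DSS 3, the brightest array, and were 2.10, 3.04 and 2.34 without it.

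A second Il1f9 probe was dim on the same 9 arrays and gave at least 1.28-fold against control, with no bound above 1 without AOM/DSS 3. The fitted difference from control, which is no measured size here, had its sign turned after normexp with an offset of 50 (log2 difference -0.03).

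Il1a, an alarmin form of interleukin-1, gave unlike answers on its 2 probes. The brighter one read -3.38, -3.58 and -5.94 in controls, -5.65, -4.70 and -4.86 in AOM, -4.58, -4.70 and -5.87 in DSS, and -3.45, -4.14 and -2.11 in AOM/DSS. Controls 1 and 2 were as bright as AOM/DSS 1 and 2, so the groups overlapped, and the difference of 1.07 ± 0.71 did not pass (adjusted p = 0.27). The other probe was not well above background on any of the 9 arrays outside AOM/DSS, where it read -5.19 or below, and read -3.73, -4.54 and -2.83 in AOM/DSS. On that probe the groups did not overlap, and against control Il1a was higher by at least 1.18-fold in AOM/DSS, a bound that was lost without AOM/DSS 3. Both Il1a probes passed the filter only through AOM/DSS, where alone the dimmer one was above background, so that it had to differ.

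Il33, the ligand of ST2, had its highest group mean in the neoplasms. It stood at -3.98, -4.02 and -1.28 in controls, -2.43, -0.40 and -0.10 in AOM, -3.95, -3.07 and -4.38 in DSS, and 1.09, -0.72 and 1.25 in AOM/DSS. The AOM/DSS arrays lay above all control and DSS arrays, and control 3 lay within the AOM range. Controls 1 and 2 and DSS 3 were not well above background. Il33 was 3.64 ± 0.86 higher in AOM/DSS than in control (adjusted p = 0.0087) and 4.34 ± 0.86 higher than in DSS (adjusted p = 0.0049). The AOM/DSS difference from AOM, 1.52 ± 0.86, did not pass (adjusted p = 0.18), and AOM/DSS 2 lay below AOM 2 and AOM 3.

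The AOM difference of Il33 from control, 2.12 ± 0.86, did not pass (adjusted p = 0.079), and it passed without control 3 or without AOM 1. Between the single agents the groups did not overlap, DSS minus AOM being -2.82 ± 0.86, without passing (adjusted p = 0.21). Without controls 1 and 2 the AOM/DSS difference from control was 1.82 (adjusted p = 0.31), so its call rested on those arrays. With slide as a block it was 4.35 (adjusted p = 0.057), and after normexp 1.49 (adjusted p = 0.15).

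Il18, the one of the 9 genes that fell, was bright on every array. It read 3.69, 3.19 and 3.19 in controls, 1.98, 2.19 and 1.81 in AOM, 3.55, 2.82 and 3.04 in DSS, and 2.21, 1.79 and 2.33 in AOM/DSS. All 6 arrays of mice given AOM lay below all 6 of those not given it. Il18 fell by 1.24 ± 0.25 on the log2 scale in AOM/DSS against control (adjusted p = 0.0042), by 1.36 ± 0.25 in AOM (adjusted p = 0.0075), and by 1.03 ± 0.25 in AOM/DSS against DSS (adjusted p = 0.013).

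The DSS difference of Il18 from control was -0.22 ± 0.25 (95% interval -0.78 to 0.34, adjusted p = 0.63), and AOM/DSS and AOM differed by 0.12 ± 0.25 (95% interval -0.44 to 0.68). DSS minus AOM was 1.15 ± 0.25 without overlap of the groups, which did not pass (adjusted p = 0.15). Its 10 spots per array varied by 3.24% to 4.82%. Within the slide shared by AOM/DSS 3 and the controls, Il18 was lower by 1.03 in the neoplasm (log2 difference -1.03), and with slide as a block the adjusted p was 0.11. Against control in AOM/DSS, the difference after normexp was -0.65 (adjusted p = 0.24), and without controls 1 and 2 it was -1.08 (adjusted p = 0.11). The call against DSS was lost after normexp (-0.64, adjusted p = 0.29), after quantile normalization (-0.79, adjusted p = 0.050), in the authors' matrix (-0.79, adjusted p = 0.051), with slide as a block (-1.41, adjusted p = 0.14) and without AOM/DSS 2 (-0.87, adjusted p = 0.050).

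**Figure D3:**
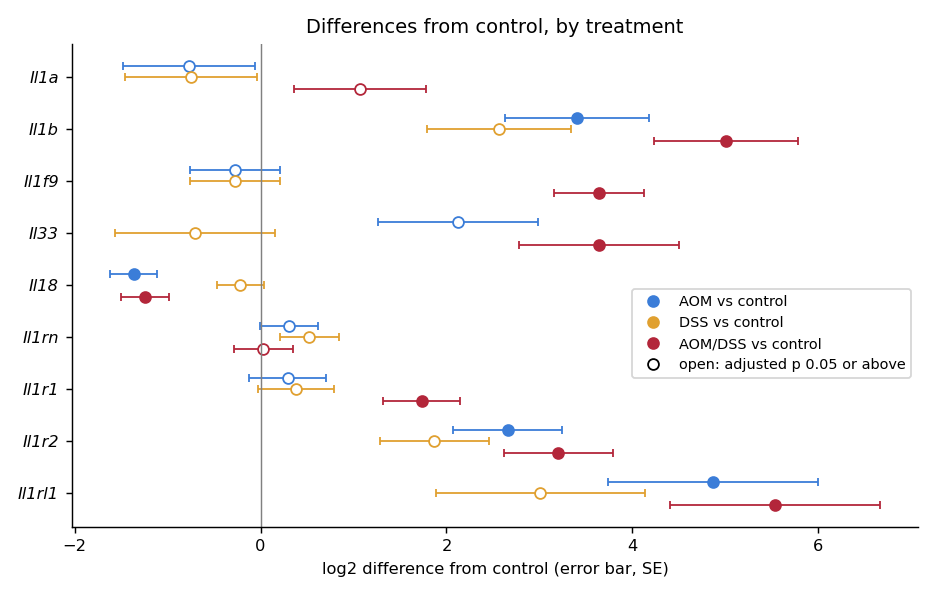
Log2 difference from control (x axis, with its SE as error bar) of each gene (y axis) in AOM, DSS and AOM/DSS, 3 arrays per group. Filled points passed an adjusted p under 0.05, which 7 genes did in AOM/DSS, 4 in AOM and 0 in DSS. Of the 7, Il1f9 passed the filter only through AOM/DSS and had to differ.

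Il1rn, whose product blocks Il1r1, was bright in all groups and no difference passed for the probe that represents it. That probe read 3.18, 2.42 and 2.31 in controls, 2.70, 3.05 and 3.08 in AOM, 2.81, 3.59 and 3.08 in DSS, and 2.36, 2.48 and 3.17 in AOM/DSS. The 4 groups overlapped, and AOM/DSS and control differed by 0.03 ± 0.32 (95% interval -0.67 to 0.73, adjusted p = 0.95), a value whose sign turned under median scaling. The dimmer probe of the same accession read -1.60, -1.03 and -1.02 in DSS and -3.22, -2.82 and -2.01 in AOM/DSS, without overlap. There Il1rn was lower by 1.47 (log2 difference -1.47 ± 0.39, adjusted p = 0.016, limma over single probes), while the brighter probe gave -0.49 ± 0.32 (adjusted p = 0.23).

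The log2 difference between the Il1b and Il1rn probes on one array shows unequal change of the agonist and the antagonist, not their ratio. It was -6.20 ± 1.00 (SD, n = 3) in controls, -3.10 ± 0.92 in AOM, -4.16 ± 0.96 in DSS and -1.23 ± 0.87 in AOM/DSS. The change of 4.97 from control to AOM/DSS came without overlap of the groups and had an exact two-sided permutation p of 0.1, the smallest that 3 against 3 allows (adjusted p = 0.2 over 12 such tests).

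Il1r1, the signalling receptor, was higher in the neoplasms than in every other group. It read -1.51, -0.36 and 0.10 in controls, -0.37, -0.12 and -0.41 in AOM, -0.15, 0.34 and -0.82 in DSS, and 0.88, 1.55 and 1.00 in AOM/DSS. The AOM/DSS arrays lay above the other 9, which overlapped with one another. The differences were 1.73 ± 0.41 from control (adjusted p = 0.0088), 1.44 ± 0.41 from AOM (adjusted p = 0.022) and 1.35 ± 0.41 from DSS (adjusted p = 0.028). After normexp the difference from control was 1.24 and still called (adjusted p = 0.017), whereas the slide block gave 1.59, not called (adjusted p = 0.14). The call against AOM was made in 3 of the 6 fits that left out 1 array, and that against DSS in 2 of 6. Without controls 1 and 2 the difference from control was 1.04 (adjusted p = 0.19).

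Il1r2, the decoy receptor of neutrophils and other myeloid cells, was higher in both groups given AOM. It read -4.32, -4.51 and -2.33 in controls, -0.43, -1.34 and -1.40 in AOM, -2.20, -0.86 and -2.47 in DSS, and -0.68, -0.64 and -0.22 in AOM/DSS. All AOM and AOM/DSS arrays lay above the controls, of which controls 1 and 2 were not well above background, and control 3 lay within the DSS range. Il1r2 was 3.20 ± 0.59 higher in AOM/DSS (adjusted p = 0.0024) and 2.66 ± 0.59 higher in AOM (adjusted p = 0.012). The DSS difference of 1.87 ± 0.59 did not pass (adjusted p = 0.15), and passed without control 3.

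On the second Il1r2 probe no control was well above background, and Il1r2 was higher by at least 4.23-fold in AOM/DSS (adjusted p = 0.00078) and at least 2.39-fold higher in AOM (adjusted p = 0.0081, limma over single probes). Without controls 1 and 2 the AOM/DSS difference of the first probe was 1.81 (adjusted p = 0.11), and after normexp it was 0.84 (adjusted p = 0.21).

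Il1rl1, the receptor of interleukin-33, was higher in both groups given AOM. The representing probe carries the accession of the soluble form of ST2, and where it lies on the transcript is not known here. It read -6.08, -3.58 and -3.90 in controls, -1.52, 1.04 and 1.51 in AOM, -3.14, 0.75 and -2.14 in DSS, and 1.32, -0.29 and 2.01 in AOM/DSS. Every treated array lay above every control, and control 1 was not well above background. The differences were 5.54 ± 1.13 in AOM/DSS (adjusted p = 0.0041), 4.86 ± 1.13 in AOM (adjusted p = 0.014) and 3.01 ± 1.13 in DSS, which did not pass (adjusted p = 0.19). The AOM/DSS difference was 2.59 after normexp (adjusted p = 0.065) and 4.92 without controls 1 and 2 (adjusted p = 0.094).

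The probe of the long, membrane-bound form did not pass against control. It read -3.13, -2.99 and -1.40 in controls, -1.67, -1.35 and -0.85 in AOM, -2.56, -2.19 and -3.42 in DSS, and -0.45, -2.09 and -0.64 in AOM/DSS. Control 3 lay within the AOM/DSS range, and the AOM/DSS difference of 1.45 ± 0.55 did not pass (adjusted p = 0.064, limma over single probes). Against DSS it was 1.66 ± 0.55 higher (adjusted p = 0.039).

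Within an array, the soluble-form probe minus the long-form probe was -2.01 ± 1.26 (SD, n = 3) in controls, 1.63 ± 1.28 in AOM, 1.21 ± 1.76 in DSS and 2.08 ± 0.49 in AOM/DSS. The AOM and AOM/DSS arrays did not overlap with the controls, and the changes of 3.65 and 4.09 each had an exact two-sided permutation p of 0.1, the smallest possible (adjusted p = 0.2). Another probe, of the soluble-form accession, was not well above background on 7 arrays, all 3 controls among them. It read -5.98, -6.18 and -6.26 in controls and -3.67, -5.10 and -3.09 in AOM/DSS, without overlap. Its AOM/DSS mean lay near the lowest passing signal of the control arrays, so no at-least fold above 1 against control could be given. This probe passed the filter only through AOM/DSS, so that difference is not support.

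**Figure D4:**
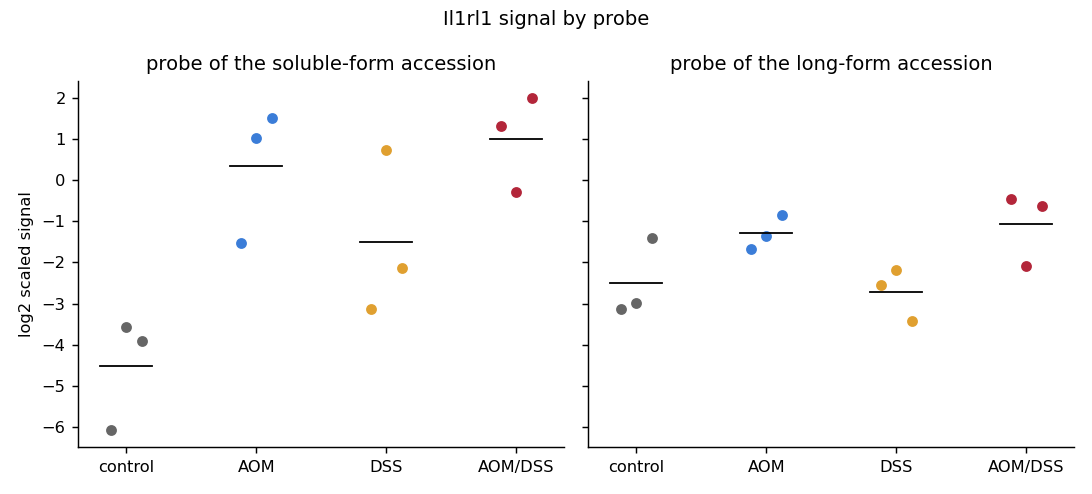
Log2 scaled signal (y axis) of 2 Il1rl1 probes by group (x axis), points for arrays and bars for group means. The soluble-form probe averaged -4.52 in controls and 1.01 in AOM/DSS, and the long-form probe differed by 1.45 between the same groups.

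In AOM against control, groups that shared no slide, 4 of 9 genes were called: Il1b, Il1r2 and Il1rl1 higher and Il18 lower. Of all genes 32.5% were called, and 14.8% were called as higher. The median difference was 0.31 over the 9 genes and -0.01 over all genes. With slide as a block 0 of 9 were called (background 0.0209%), and 0 were called after normexp or without controls 1 and 2. The Il1rl1 call was also lost without control 1 or without AOM 2.

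In DSS against control limma called 0 of 9 genes, and 0.325% of all genes. The unadjusted p was under 0.05 for Il1b, Il1r2 and Il1rl1. The median difference was 0.38 over the 9 genes and -0.03 over all. In DSS against AOM 0 of 9 were called, with 0.0105% of all genes and unadjusted p under 0.05 for Il33 and Il18.

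Against AOM, 2 of 9 genes were called in AOM/DSS, Il1f9 and Il1r1, with 37.2% of all genes called. With slide as a block Il1f9 alone was called, against a background of 15.1%. Against DSS, 5 of 9 were called, of which Il1b, Il1f9, Il1r1 and Il33 were higher and Il18 lower, with 35.8% of all genes called and 17.6% called as higher. With slide as a block Il1f9 alone passed (background 2.5%). Il1f9 passed the filter only through AOM/DSS, so it had to differ and its calls against AOM and DSS are not support. The AOM/DSS arrays are shared by these comparisons, as the controls are by the earlier ones.

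The AOM/DSS difference from control was also set against the sum of the 2 single-agent differences, with the dose and collection differences stated above. Of the 9 genes 1 departed from that sum, and 35.4% of all genes did. It was Il1f9, whose probe was at background on all control, AOM and DSS arrays and passed the filter only through AOM/DSS, so that the sum of its single-agent differences was not measured. With slide as a block 0 departed (background 0.0105%).

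Beyond the 9 genes, the family and its pathway were followed in lists written from general knowledge. Of 20 tested chemokines and other genes induced by interleukin-1 and NF-κB, 12 were higher and 1, the acute-phase gene Saa3, lower in AOM/DSS against control, beside 17.2% of all genes called higher. The list median was 2.45, and 7 were not called. In AOM 9 were higher and 1 lower, beside 14.8% called higher (median 1.63), and in DSS 0 were called, beside 0.325% (median 1.19). Against AOM the list held 1 gene called in AOM/DSS, Cxcl2, beside 37.2% of all genes (median 0.73). Against DSS 5 were higher (Cxcl1, Cxcl2, Cxcl5, Lcn2 and Tnf), beside 17.6% called higher (median 0.72). Cxcl2 passed the filter only through AOM/DSS, so its calls in AOM/DSS against control, AOM and DSS are not support.

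The neutrophil chemoattractant Cxcl5 read -6.10, -6.27 and -5.04 in controls and 2.29, 1.87 and 3.94 in AOM/DSS. All 3 controls were not well above background, and in AOM/DSS its signal was at least 99.2-fold higher (adjusted p = 0.00015), or 64.4-fold without AOM/DSS 3. The siderophore-binding lipocalin Lcn2 was at least 112-fold higher (adjusted p = 0.00084), or 77.3-fold without AOM/DSS 3 and 178-fold without AOM/DSS 1. The neutrophil chemoattractants Cxcl1 and Cxcl2 were at least 31.7-fold (adjusted p = 0.00048) and at least 10.4-fold higher. Cxcl2 passed the filter only through AOM/DSS, so it had to differ.

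Among other ligands of the family Il1f6, encoding interleukin-36α, was the one of 3 on the array that passed the filter, and against control it was higher by at least 1.07-fold in AOM/DSS, a bound lost without AOM/DSS 1 or 3. Of 5 other receptors and binding proteins tested, Il18rap, a subunit of the interleukin-18 receptor, was at least 1.27-fold higher, and Sigirr, an inhibitory receptor, fell by 0.90 ± 0.26 (adjusted p = 0.024). Il1f6 and Il18rap passed the filter only through AOM/DSS, so they had to differ. The list median was 0.49 for the receptors. Of them 2 of 5 were called, beside 34.6% of all genes, so the count is no result about the list.

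The inflammasome list held 11 tested genes, of which Casp8 rose by 0.80 ± 0.26 (adjusted p = 0.037) while Pycard, the adaptor ASC, and Naip5, a sensor of flagellin, fell by 2.08 ± 0.33 (adjusted p = 0.0012) and 1.30 ± 0.29 (adjusted p = 0.0062). Its median was -0.23, and its 3 calls of 11 lie below the 34.6% of all genes, so the count is no result about the list. Pycard read 5.28, 5.96 and 5.39 in controls and 3.64, 3.53 and 3.23 in AOM/DSS. In AOM, Casp1, Casp4, Naip5 and Nlrc4 were lower and the neutrophil and mast cell protease Ctsg was higher.

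Of 17 receptor adaptors and kinases, Ikbkb rose by 0.86 ± 0.17 (adjusted p = 0.0034) and Tab1 fell by 0.96 ± 0.24 (adjusted p = 0.011), with a list median of 0.02 and 2 called, a share below that of all genes. The 7 genes linked to interleukin-33 were type 2 genes and Foxp3, a regulatory T cell gene. Foxp3 was higher and Il13 and Retnla were lower in AOM/DSS against control (list median 0.80). Foxp3 passed the filter only through AOM/DSS, so it had to differ. Its bound of at least 1.04-fold was lost without control 3 or AOM/DSS 3, and in AOM it was at least 2.52-fold higher. Il13 lay near the lowest passing signal: -3.81, -3.53 and -3.69 in controls, beside -3.77, -3.95 and -4.08. In AOM/DSS it read -4.71, -4.86 and -4.73, beside -5.05, -5.25 and -4.89, so its fall is no measured size. Retnla, a product of alternatively activated macrophages, was at least 25.3-fold lower (adjusted p = 0.00020), or 14.1-fold without control 3. Of 6 type 1 genes linked to interleukin-18, Tbx21, which encodes T-bet, fell by 1.78 ± 0.54 (adjusted p = 0.027) and 0 were higher (median -0.13). The 3 of 7 and 1 of 6 called stand beside the same 34.6%.

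The genes most like each member over the 12 arrays were found by Pearson correlation of log2 scaled signal among genes that passed the filter. The arrays fall into groups, so these values describe shared group differences and carry no test. Il1b was most like Bmper, Cxcl1 and Cxcl5 (each r = 0.98), Il1r2 most like Stx11 (r = 0.99), Slc11a1 and Ttc7b (both r = 0.98), and Il33 most like Gls2 (r = 0.99). Il1rl1 was closest to Ctps, Mrpl22 and Nup93 (each r = 0.97), Il1f9 to Ppef1 (r = 0.97), and Il18 to Abi1 (r = 0.97). Il1r1 was closest to Mphosph9 (r = 0.95), and Il1a and Il1rn reached 0.87 with Nox1 and with Sprr2j-ps.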

How the data were processed

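RNA of 12 samples was hybridised to one-colour arrays. The deposited scanner files hold intensity values from Agilent Feature Extraction, version 10.7 per the submitters' processing notes and 10.7.3.1 per the file headers; the processed signal is background-subtracted and not normalized between arrays. The authors' deposited series matrix holds log2 values, quantile normalized as its sorted columns are equal within 0.000945; the tool used for that is not named in these sources. Per-spot flags (well above background, outlier) are the deposited files' own. Of 41174 non-control probes 27198 carried a gene symbol, and 129 were left out because all their spots were flagged on an array.

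Spots of a probe were averaged, and log2 values minus each array's 75th percentile were used. Probes well above background on all 3 arrays of a group were kept, and the brightest represented its gene. This left 19094 genes, 13490 with a symbol. Group means were fitted over all 12 arrays with limma 3.58.1 in R 4.3.3 (lmFit, eBayes) and p-values adjusted by Benjamini-Hochberg; the fit was tested on simulated data. Values of 2 probes on one array were compared by exact permutation. Named genes are every member, up to 4 called genes with the largest change from each pathway list, and the 3 genes most correlated with each member, of which not all are printed. The members, lists and comparisons were chosen with earlier results of these data known. Alternatives changed background correction, scaling, filter, probe choice, slide, replicate number and the arrays used.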

Additional observations from a re-analysis of the deposited data

Results flagged for a closer look

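Il1f9 differed between the AOM/DSS group and the sum of the single-agent effects, with a fitted departure of 4.18 ± 0.68 on the log2 scale (adjusted p = 0.0079, limma). The test was of the difference itself. Its probe was not well above background on any array of the other 3 groups and passed the filter only through AOM/DSS, so the fitted value is no measured size and the p-value is not support. The departure was not called with slide as a block or after normexp.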

How the results depend on the processing

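Called differences kept their direction more often than uncalled ones, but changed their status more often. They had been picked for being large against their SE, and those of Il1f9 had to differ. For the 19 called gene values, 344 of 345 alternative values kept their direction and 286 stayed called; the exception was Il1f9 in AOM/DSS against control, -0.030 after normexp. For the 44 values not called, 55 of 820 alternative values changed sign, none of these passing the test, and 24 passed.

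The 7 genes called in AOM/DSS against control became 2 after normexp and 2 with a filter on all 12 arrays, which left 3 of the 9 genes to test. They became 4 with slide as a block and 1 without controls 1 and 2, namely Il1f9, which had to differ. The 4 in AOM became 0, 1, 0 and 0 in the same order. In DSS against control 1, Il1r2, was called without control 3, and also without control 3 and DSS 1 together. The 2 in AOM/DSS against AOM became 1 after normexp, median scaling, the filter on all 12 arrays and the slide block, and 1 to 2 when leaving out an array. The 5 against DSS became 1 after normexp, 3 under median scaling, 4 after quantile normalization and in the authors' matrix, where Il18 was not called, 2 with the filter on all 12 arrays, 8 with the mean of a gene's probes, 9 with every probe on its own, 1 with slide as a block, and 3 to 7 when leaving out an array. The 1 departure from the sum became 0 after normexp, with the filter on all 12 arrays and with slide as a block, 2 with the mean of probes, 3 with every probe, 3 without control 3 and DSS 1, and 1 to 3 when leaving out an array. Causes other than fewer genes or arrays were not tested.

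The sign turned for these differences from control, all uncalled except Il1f9. In AOM/DSS, Il1a was -0.86 after normexp, and Il1rn was -0.12 under median scaling, -0.40 with the mean of its probes, -0.13 without control 3 and DSS 1, and -0.22 to 0.30 when leaving out an array. In AOM, Il1r1 was -0.10 after normexp, -0.40 without controls 1 and 2 and -0.17 to 0.63 when leaving out an array. Il1f9 was 0.28 in quantile normalized and in matrix values and 1.62 with slide as a block, and Il1a 0.81 with slide as a block and 0.87 without controls 1 and 2. In DSS, Il1r1 was -0.10 after normexp, -0.074 to 0.73 when leaving out an array and -0.30 without controls 1 and 2. Il33 was -1.17 to 0.20 when leaving out an array and 0.28 without control 3 and DSS 1. Il1a was 0.61 with slide as a block and 0.89 without controls 1 and 2, Il18 0.38 and Il1f9 1.31 with slide as a block. Against DSS, Il1a in AOM/DSS was -0.50 after normexp.

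Median scaling moved the median difference of all genes by -0.15 in AOM/DSS, and 0.17 in AOM, against control, by -0.32 in AOM/DSS against AOM, by -0.23 against DSS and by -0.40 in the departure. Normexp moved it by -0.36, -0.27, -0.09, -0.33 and 0.06.

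Same-numbered arrays of different groups correlated at -0.27 to 0.25 in their deviations from group means (median 0.09). Arrays with other numbers correlated at -0.25 to 0.38 (median -0.08). With 3 arrays a group, these values cannot decide whether the numbers pair the samples. With a replicate block the counts of called genes were 7, 4 and 0 against control in AOM/DSS, AOM and DSS, 2 and 5 in AOM/DSS against AOM and DSS, and 1 departure, as without it. The at-least folds were also recomputed without each array, a check chosen after seeing the data. Precision is limited by 3 arrays a group and by signals near background, above all Il1f9, Il1a and the control values of Il1b, Il1r2 and Il33.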
